A study of Strongylocentrotus intermedius with 6 samples.

Results

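The transcripts described here are those of the activating arm of the circadian clock, BMAL1 and CLOCK, together with Timeless, in coelomocytes of the sea urchin Strongylocentrotus intermedius. They were taken by identifier from the count table and make up 4 of its 30559 gene models. Bmal1 (ZJQ011976) and CLOCK (ZJQ017717) are coding models, Timeless (ZJQ002987) is a coding model described as a timeless homolog, and lncRna04157 is a noncoding model that carries the symbol BMAL1. RNA was sequenced from 3 libraries labelled ZT12 and 3 libraries labelled ZT0, all of coelomocytes, the circulating immune cells of the body cavity, and all under LD. Zeitgeber time counts hours from lights-on by convention, and LD stands by convention for a cycle of light and dark. The labels state neither the hours of light, nor the age or genotype of the animals, nor whether a library came from 1 animal or a pool. The p-values therefore speak only of the spread among these 6 libraries, and that spread may be partly technical. No sequence or genome position of the models was used here.

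BMAL1 and CLOCK are basic helix-loop-helix PAS proteins that pair and bind E-box elements in DNA, where they switch on genes that include their own repressors. In mammals those repressors are the cryptochrome and period proteins, and a second loop of Rev-erb and ROR nuclear receptors acts back on the Bmal1 gene, whose transcript is usually the strongly cycling one of the pair. Timeless is a light-sensitive clock repressor in the fruit fly, whereas its mammalian namesake is best known for travelling with the replication fork, bound to its partner TIPIN. Circulating immune cells of mammals carry such a clock, and it gates how they respond at different times of day.

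Total counts per library ranged from 20229918 to 24368884, and 18456 models had enough counts to be tested between times. All 4 clock models passed that filter, with 52 to 574 counts each in every library. The edgeR test called 24 models at an adjusted p under 0.05, which is 0.13% of those tested, and 3 of them were higher at ZT12 (0.0163%). Genes known from coelomocytes were compared between the times. No other tissue is among the libraries, so these levels do not test the tissue label. The summed level of 3 profilin models, a coelomocyte actin-binding protein, was 4766 to 7338 CPM (counts scaled to a common library size) at ZT12 and 5242 to 7033 CPM at ZT0. That of 138 scavenger receptor cysteine-rich models was 10938 to 14136 CPM at ZT12 and 11031 to 12507 CPM at ZT0. Complement C3, complement component B and dual oxidase models overlapped between the times likewise, while 3 macroglobulin models summed to 49.7 to 69.1 CPM at ZT12 and 42.3 to 47.2 CPM at ZT0. The coelomocyte clotting protein amassin is not analysed here. Of 8 marker lists for cell types or tissues, the one for skeleton-forming cells alone separated the times in its summed level, at 90.4 to 182 CPM in ZT12 libraries and 361 to 728 CPM in ZT0 libraries, with 5 of 10 tested models called, and its part in the results below was not tested. In bulk RNA of this kind, fewer cells of a type and less RNA per cell cannot be told apart.

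Bmal1 transcripts were more abundant in every ZT12 library than in any ZT0 library. The counts were 428, 540 and 207 in ZT12 libraries 1, 2 and 3, against 60, 189 and 52 in ZT0 libraries 1, 2 and 3. On library sizes scaled by TMM this came to 17.5, 25.7 and 9.46 CPM at ZT12, against 3.03, 8.07 and 2.58 CPM at ZT0. Library 2 was the highest of its time at both times, and the gap between the groups was narrow, since the lowest ZT12 library stood 1.17 times above the highest ZT0 library. Mean levels were 17.5 CPM at ZT12 (SD 8.10) and 4.56 CPM at ZT0 (SD 3.05, n = 3 libraries each). The fitted difference was 3.78-fold (log2 fold change 1.92, SE 0.54, 95% interval 0.66 to 3.17), and it did not pass edgeR's test over all genes (unadjusted p = 0.00799, adjusted p = 0.444). Groups that separate in this direction made up 5.84% of all models tested, and 450 models (2.44%) had a log2 fold change at least as high as that of Bmal1. The coefficient of variation between libraries was 46.2% at ZT12 and 66.8% at ZT0, whereas counting error alone would give 4.30% to 13.9% for these counts.

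The noncoding BMAL1 model followed nearly the same course. It had 318, 574 and 131 counts in ZT12 libraries 1, 2 and 3, against 67, 103 and 68 counts in ZT0 libraries 1, 2 and 3. Scaled levels were 13.0, 27.3 and 5.99 CPM at ZT12, against 3.38, 4.4 and 3.38 CPM at ZT0. Again every ZT12 library lay above every ZT0 library, and again library 2 was the highest of each time. The ZT0 libraries were close together (3.72 ± 0.588 CPM) and the ZT12 libraries were far apart (15.4 ± 10.8 CPM; SD, n = 3 each), so that ZT12 library 2 held 4.56 times the level of ZT12 library 3. The fitted difference was 4.11-fold (log2 fold change 2.04, SE 0.56, 95% interval 0.73 to 3.35; edgeR unadjusted p = 0.00724, adjusted p = 0.420). Without ZT12 library 2 the log2 fold change of lncRna04157 was 1.35.

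Both BMAL1 models carry the same protein description in the deposited annotation, basic helix-loop-helix ARNT-like protein 1, and how the counting treated strand is not stated by the labels. If they share a locus, some reads of the coding and of the noncoding model may not be told apart. Their counts were therefore also added before the test. The sum was 30.5, 52.9 and 15.4 CPM at ZT12, against 6.41, 12.5 and 5.96 CPM at ZT0, and the groups were again apart. The log2 fold change of the sum was 1.98 (SE 0.50, 95% interval 0.82 to 3.14), with an edgeR unadjusted p of 0.00449 and an adjusted p of 0.351. The noncoding model took 42.6%, 51.5% and 38.8% of the summed reads at ZT12, against 52.8%, 35.3% and 56.7% at ZT0. ZT0 libraries 1 and 3 had a larger share than any ZT12 library, and ZT0 library 2 had a smaller one. With 3 libraries at each time, whether the division of reads differs between ZT12 and ZT0 is not settled.

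**Figure D1:**
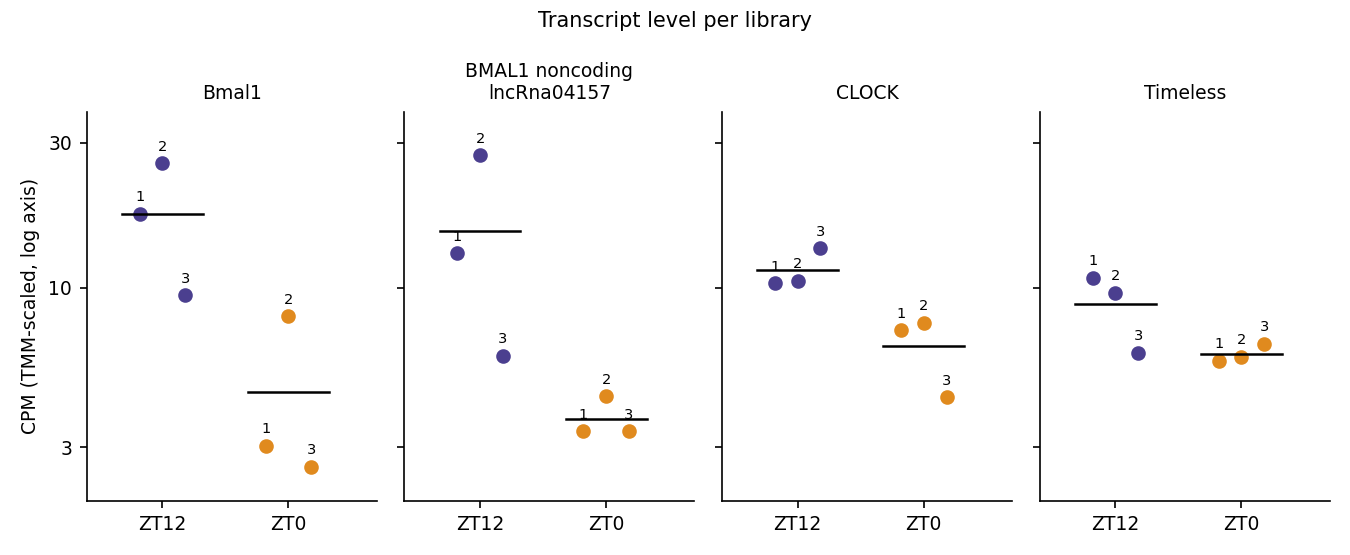
Level of Bmal1, lncRna04157, CLOCK and Timeless in each library, in CPM on TMM-scaled library sizes (log axis), with ZT12 libraries on the left and ZT0 libraries on the right of each panel. Each point is 1 library with its number and the line is the mean of 3; the ZT12 points lie above all ZT0 points in every panel but Timeless, where ZT12 library 3 at 6.12 CPM lies among the ZT0 libraries.

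CLOCK, the DNA-binding partner of BMAL1, was also higher in every ZT12 library, by a smaller margin and with less spread. Its counts were 253, 222 and 295 in ZT12 libraries 1, 2 and 3, against 144, 180 and 88 in ZT0 libraries 1, 2 and 3. These gave 10.4, 10.5 and 13.5 CPM at ZT12, against 7.27, 7.69 and 4.37 CPM at ZT0. The libraries of each time lay close together, and the lowest ZT12 library stood 1.35 times above the highest ZT0 library, a wider gap than that of Bmal1. The order of libraries differed from that of Bmal1 at ZT12, where library 3 was the highest for CLOCK. At ZT0 the order was the same as for Bmal1, with library 3 the lowest. Mean levels were 11.5 CPM at ZT12 (SD 1.75) and 6.44 CPM at ZT0 (SD 1.81, n = 3 libraries each). The fitted difference was 1.77-fold (log2 fold change 0.83, SE 0.33, 95% interval 0.06 to 1.6), which did not pass edgeR's test (unadjusted p = 0.0387, adjusted p = 0.648). An unadjusted p under 0.05 in this direction was found for 3.44% of all models tested, and 9.66% had a log2 fold change at least as high as that of CLOCK. Without ZT0 library 3 the log2 fold change of CLOCK was 0.61.

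Read per length of transcript, Bmal1 was the most abundant of these models and CLOCK the least. In FPKM, a level that divides by library total and by the length of each model, Bmal1 (1920 bases) had 9.45 ± 4.31 at ZT12 and 2.35 ± 1.76 at ZT0 (SD, n = 3 each). The noncoding BMAL1 model (2677 bases) had 5.96 ± 4.20 FPKM at ZT12 and 1.34 ± 0.319 FPKM at ZT0. Timeless (4737 bases) had 1.93 ± 0.476 FPKM at ZT12 and 1.23 ± 0.102 FPKM at ZT0. CLOCK (7299 bases) had 1.64 ± 0.306 FPKM at ZT12 and 0.853 ± 0.278 FPKM at ZT0. The order of the means was thus the same at both times. At ZT12 the values of Bmal1 and the noncoding model overlapped, as did those of Timeless and CLOCK, while the lowest value of the noncoding model, 2.41 FPKM, was above the highest of Timeless, 2.29 FPKM. At ZT0 all neighbours overlapped but Timeless and CLOCK, which were nearly touching, with a lowest Timeless value of 1.11 FPKM and a highest CLOCK value of 1.10 FPKM. Among all tested models, mean FPKM over the 6 libraries was lower than that of Bmal1 in 62.7%, and lower than that of CLOCK in 21.4%.

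The balance between partners was read as the ratio of one model to another within a library, which needs no scaling between libraries. Per length, Bmal1 exceeded CLOCK by 6.43, 9.25 and 2.67 times in ZT12 libraries 1, 2 and 3, against 1.58, 3.99 and 2.25 times in ZT0 libraries 1, 2 and 3. Bmal1 was therefore the more abundant partner in all 6 libraries, and the ratios of the times overlapped at ZT12 library 3 and ZT0 library 2. As log2 ratios of counts the means were 0.51 ± 0.92 at ZT12 and -0.65 ± 0.67 at ZT0 (SD, n = 3 each), a difference of 1.16 (two-sided exact permutation test, p = 0.2, and 0.4 adjusted over the 6 pairs compared). With 3 libraries against 3 the smallest p this test can give is 0.1. That value was reached by the ratio of Bmal1 to Timeless, which differed by 1.51 on the log2 scale, and by the ratio of lncRna04157 to Timeless, which differed by 1.29 (exact permutation test, p = 0.1 each, 0.3 adjusted over the 6 pairs). In these 2 ratios every ZT12 library lay above every ZT0 library. Without ZT12 library 2 the difference was 0.83 for lncRna04157 over Timeless, 0.77 for Bmal1 over CLOCK and 0.34 for lncRna04157 over CLOCK, which was 0.93 with it. Bmal1 against its noncoding model differed by 0.22 between the times (exact permutation test, p = 0.7), and CLOCK against Timeless by 0.36 (exact permutation test, p = 0.6). None of the 6 pairs could pass the threshold with this test, so whether the 4 models differ in how far they move between ZT12 and ZT0 is not settled by these libraries.

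**Figure D2:**
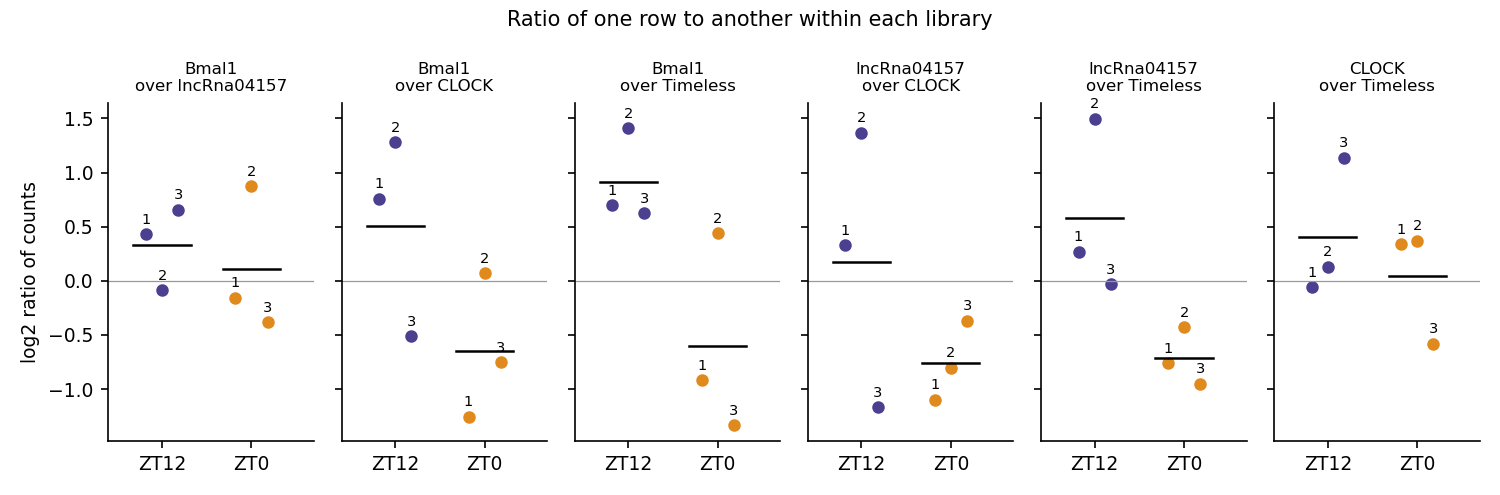
Log2 ratio of the counts of one model to those of another within each library, for the 6 pairs, with ZT12 left of ZT0 in each panel. Points are libraries with their number and lines are means of 3; the groups separate in the panels of Bmal1 over Timeless and lncRna04157 over Timeless, and overlap in the other 4.

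BMAL1 and CLOCK belong to the bHLH-PAS family, and the 6 other tested models of that family had higher mean FPKM than either and log2 fold changes nearer to 0. HIF1A, the oxygen-regulated subunit of the hypoxia response, was the most abundant at a mean of 116 FPKM over the 6 libraries, followed by the aryl hydrocarbon receptor AHR at 40.3 FPKM, the nuclear receptor coactivator NCOA2 at 19.6 FPKM and ARNT at 13.1 FPKM. ARNT is the general partner subunit of this family and the closest relative of BMAL1 among them. ARNT had 60.2, 40.5 and 41.3 CPM in ZT12 libraries 1, 2 and 3, against 35.0, 40.3 and 40.1 CPM in ZT0 libraries 1, 2 and 3. The lowest ZT12 library stood barely above the highest ZT0 library, with a log2 fold change of 0.30 (SE 0.23; edgeR adjusted p = 0.821). For HIF1A, AHR, NCOA2, NPAS3 and Epas1 the libraries of the times overlapped, and their log2 fold changes lay between -0.15 (NPAS3) and 0.18 (AHR). Of the 9 tested bHLH-PAS models 0 were called by edgeR and 3 had an unadjusted p under 0.05, all higher at ZT12 (3.44% of all tested models), which were Bmal1, its noncoding model and CLOCK. The median log2 fold change of the 9 models, these 3 included, was 0.18, beside 0.00062 over all 18456 models. The 6 other models ran from -0.15 (NPAS3) to 0.30 (ARNT). SIM1 and AHRR, the remaining 2 models of this family, had too few counts to be tested.

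The Timeless libraries of the times overlapped. Its counts were 264, 203 and 134 in ZT12 libraries 1, 2 and 3, against 114, 139 and 132 in ZT0 libraries 1, 2 and 3. Scaled levels were 10.8, 9.64 and 6.12 CPM at ZT12, against 5.76, 5.94 and 6.56 CPM at ZT0. ZT12 libraries 1 and 2 stood above all others, and ZT12 library 3 lay within the ZT0 range. Mean levels were 8.86 CPM at ZT12 (SD 2.44) and 6.08 CPM at ZT0 (SD 0.422, n = 3 libraries each). The log2 fold change was 0.54 (SE 0.34), and its 95% interval of -0.24 to 1.33 included no difference (edgeR adjusted p = 0.784). The deposited annotation gives Timeless both circadian rhythm and replication fork protection terms.

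The genes that work with TIMELESS at mammalian replication forks were read beside it. Tipin, its direct partner, had 10.6, 3.47 and 5.94 CPM in ZT12 libraries 1, 2 and 3, against 4.80, 3.67 and 5.07 CPM in ZT0 libraries 1, 2 and 3, and the groups overlapped (log2 fold change 0.58, edgeR adjusted p = 0.840). Tipin and Timeless shared their highest library, ZT12 library 1. Claspin (clspn), the checkpoint adaptor at the fork, had a log2 fold change of 0.24, and pcna, the sliding clamp, had 268, 120 and 93.4 CPM at ZT12, against 124, 90.6 and 155 CPM at ZT0. These 3 genes are named for their role. The smallest p values of the list belonged to Pole, the catalytic subunit of a replicative polymerase (log2 fold change 1.30, edgeR unadjusted p = 0.0323, adjusted p = 0.626), pola1 (ZJQ014003, of the polymerase that starts new strands; 0.84, unadjusted p = 0.0413), Rpa3 (ZJQ005814, 0.82, unadjusted p = 0.0801) and RPA1 (0.64, unadjusted p = 0.0835), the last pair being subunits of the protein that coats single-stranded DNA. A second Rpa3 model, ZJQ005787, had a log2 fold change of -1.12 (edgeR unadjusted p = 0.143). Of the 30 tested fork genes 0 were called, 24 had a log2 fold change above 0, and the median was 0.36. Over all tested models 50.1% lay above 0.

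The fork genes were highest in 1 library more than at 1 time. In 21 of the 30 the highest of the 6 libraries was ZT12 library 1. With each gene centred on its own mean, their median log2 level was 0.77, -0.13 and -0.25 in ZT12 libraries 1, 2 and 3, against -0.27, -0.25 and 0.08 in ZT0 libraries 1, 2 and 3. Timeless stood at 0.57, 0.41 and -0.24 in the ZT12 libraries, against -0.33, -0.28 and -0.14 in the ZT0 libraries. Timeless was thus high in ZT12 library 1 with the fork genes, and also in ZT12 library 2, where their median was not raised. Without ZT12 library 1 the log2 fold change of Timeless was 0.38.

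**Figure D3:**
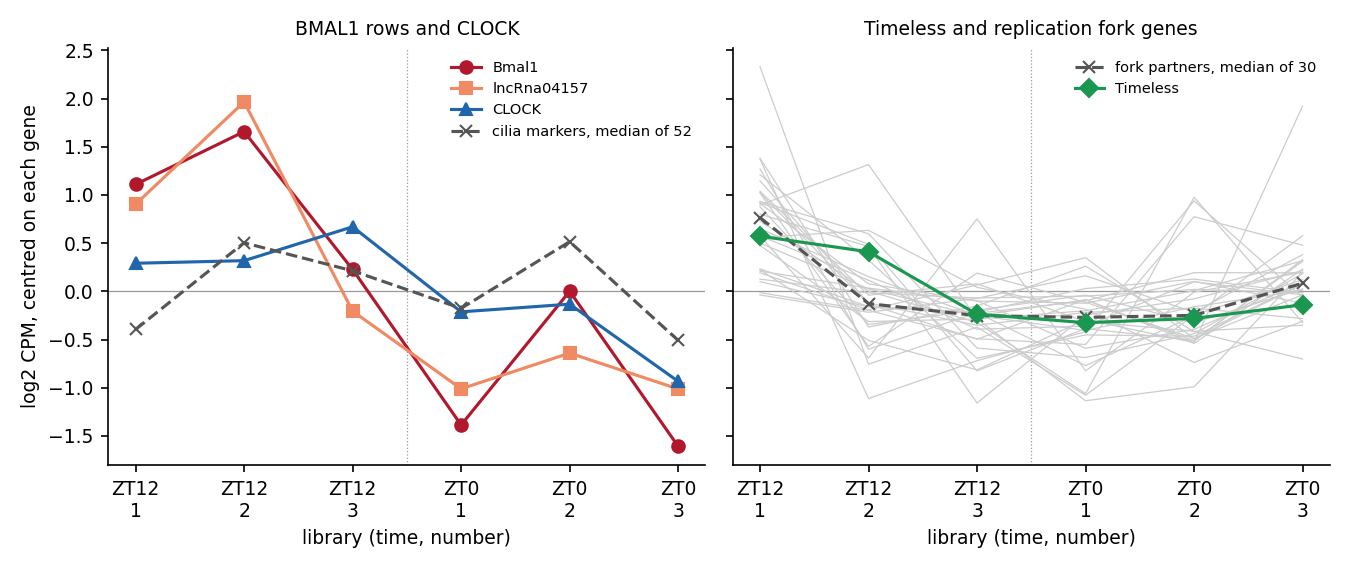
Level of each gene in the 6 libraries as log2 CPM centred on the gene's own mean, ZT12 libraries left of ZT0 libraries. On the left Bmal1, lncRna04157 and CLOCK stand with the median of 52 cilia markers; on the right Timeless stands with 30 replication fork genes (grey) and their median, which peaks at 0.77 in ZT12 library 1.

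Libraries also differed in markers of ciliated cells. The summed level of 53 cilia models was 461, 822 and 687 CPM in ZT12 libraries 1, 2 and 3, against 569, 848 and 448 CPM in ZT0 libraries 1, 2 and 3, and none of them was at 0 throughout. Library 2, the highest of each time in both BMAL1 models, was the highest of each time in these markers too. The shared number does not pair these libraries. Over all tested models, their deviations from the mean of their own time had a correlation of 0.02. ZT12 library 1, the lowest of its time in the cilia markers, was the second highest in both BMAL1 models. The median centred log2 level of nerve markers was also highest in library 2 of each time, at 0.30 for ZT12 and 0.47 for ZT0. Their summed level was highest in library 2 at ZT12 only (1986 CPM). At ZT0 that sum was 1961 CPM in library 3, against 1938 CPM in library 2. The cilia marker sums overlapped between the times, and 0 of the 52 tested cilia models were called. With library 2 of both times left out, the log2 fold change of Bmal1 was 2.27 (edgeR adjusted p = 0.360), that of lncRna04157 1.49 (adjusted p = 0.462) and that of CLOCK 1.03 (adjusted p = 0.511). The ZT12 excess of Bmal1 was as large without these libraries, and that of lncRna04157 was smaller. Leaving them out was chosen after seeing the data, and the part of ciliated cells in these differences was not tested.

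Repressors that BMAL1 and CLOCK switch on in the mammalian clock, and relatives of these repressors, were then read at the same 2 times. Among 6 cryptochrome and photolyase models, which in animals either repress the clock or use light to sense or mend, 3 had a log2 fold change above 0 and 3 below, with a median of -0.02. CRY1 (ZJQ010072), the most abundant of them, had 13.9, 26.4 and 42.5 CPM in ZT12 libraries 1, 2 and 3, against 33.8, 44.6 and 29.2 CPM in ZT0 libraries 1, 2 and 3. The CRY1 groups overlapped widely (log2 fold change -0.38, SE 0.39; edgeR adjusted p = 0.884). The cry model ZJQ010692 had a log2 fold change of 0.63, the Cry2 models ZJQ009229 and ZJQ009245 had -0.11 and -0.50, and cry-dash had 0.96 with a 95% interval of -1.10 to 3.02. None of the 6 separated by time or had an unadjusted p under 0.05. Period is not analysed here.

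In the second loop, 1 of 3 models with the Rev-erb symbol Nr1d2 stood with the activators. Nr1d2 (ZJQ018676), a nuclear receptor that represses Bmal1 in mammals, had 14.9, 13.3 and 14 CPM in ZT12 libraries 1, 2 and 3, against 4.44, 8.42 and 10.4 CPM in ZT0 libraries 1, 2 and 3. Its lowest ZT12 library exceeded its highest ZT0 library, with a log2 fold change of 0.86 (SE 0.35; edgeR unadjusted p = 0.0412, adjusted p = 0.654). In size this difference was near that of CLOCK, and neither passed the test. The other Nr1d2 models, ZJQ000820 and ZJQ019208, had log2 fold changes of 0.40 and -0.29 with overlapping groups, and RORA, the receptor that activates Bmal1 in mammals, had -0.15. HLF (ZJQ000791), a PAR bZIP output factor, lay the other way in every library, with 68.2, 66.8 and 61.3 CPM at ZT12, against 84.6, 76.6 and 80.5 CPM at ZT0 (log2 fold change -0.30, edgeR adjusted p = 0.742). Separation in that direction was found for 6.33% of all models. The other tested HLF model, ZJQ017941, had 56.1, 47.1 and 44.7 CPM at ZT12, against 45.5, 43.6 and 35.5 CPM at ZT0, and its log2 fold change was 0.25 with overlapping groups. Of the 7 tested factors of this loop 0 were called and the median log2 fold change was -0.15.

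**Figure D4:**
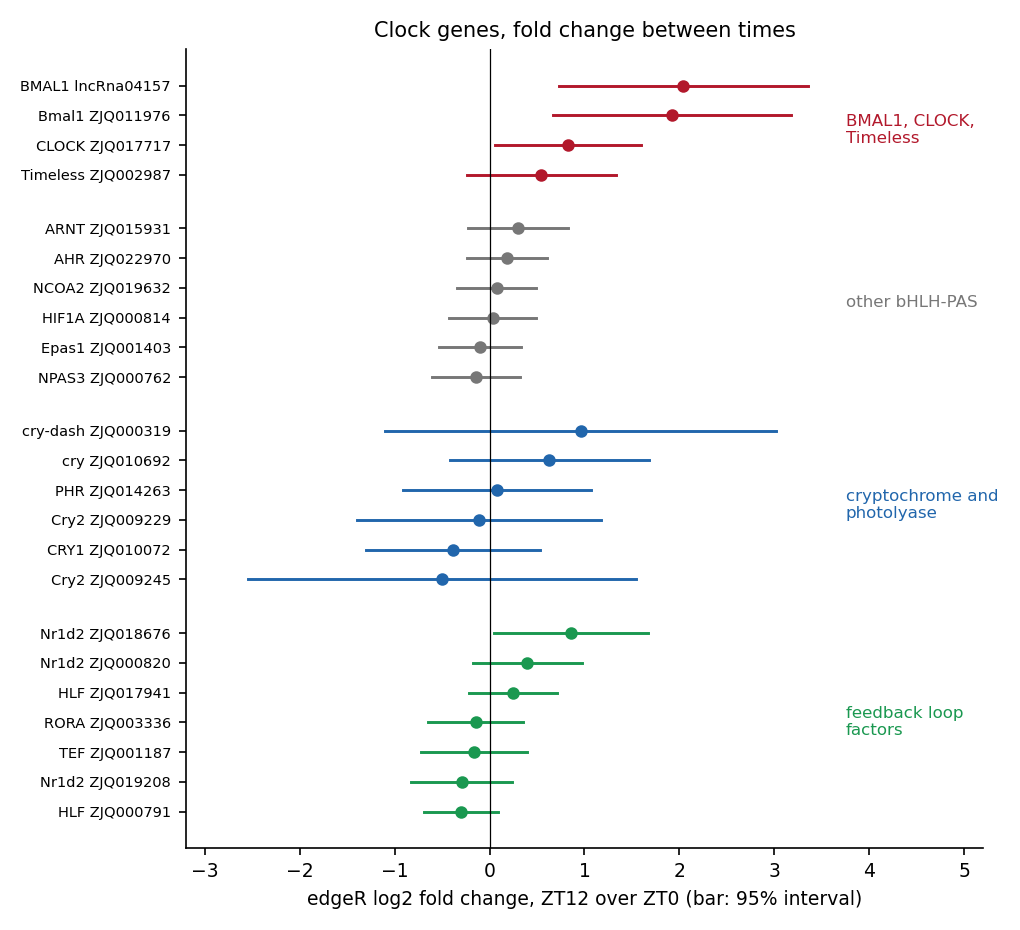
EdgeR log2 fold change of ZT12 over ZT0 for single clock models, with 95% intervals as bars, grouped by role. Bmal1, lncRna04157, CLOCK and the Nr1d2 model ZJQ018676 have intervals wholly above 0, and all other intervals drawn include 0.

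Enzymes that modify clock proteins showed little difference. Of 27 tested kinases, ubiquitin ligase subunits, acetylases and deacetylases, 14 had a log2 fold change above 0 and 13 below, the median was 0.04, and 0 had an unadjusted p under 0.05. Among the models with the smallest p values of this list, Pias1, a SUMO ligase, had a log2 fold change of 0.27, the kinase DYRK1A had 0.47 and csnk2b, the regulatory subunit of casein kinase II, had -0.24. Of 11 genes known in mammals as clock outputs, 4 were above 0 and 7 below, with a median of -0.08. LONRF3 was lower in every ZT12 library, with 40.0, 38.7 and 33.4 CPM against 50.8, 52.9 and 52.4 CPM at ZT0 (log2 fold change -0.48, edgeR unadjusted p = 0.0309, adjusted p = 0.624). MYC, a growth-promoting transcription factor, had a log2 fold change of -0.58 (edgeR unadjusted p = 0.0696) with overlapping groups.

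The authors' own pathway terms gave 2 further sets. Of 25 tested models under circadian rhythm 0 were called, 17 had a log2 fold change above 0 and the median was 0.06. Those of the 25 with an unadjusted p under 0.05 were Bmal1, CLOCK and the Nr1d2 model ZJQ018676. E75, named after a fly nuclear receptor and also under that term, showed how far single libraries could stand apart, with 1.43, 12.2 and 2.74 CPM at ZT12 and 0.252, 8.71 and 0.0994 CPM at ZT0. E75 shared with Bmal1 a peak in library 2 of each time. Of 44 tested models under circadian entrainment, a term made mostly of calcium, cyclic nucleotide and glutamate signalling genes, 0 were called, 4 had an unadjusted p under 0.05 in the higher and 1 in the lower direction (3.44% and 3.87% of all tested models), and the median was 0.09. The smallest p was that of gnas (ZJQ008545), a G protein subunit that activates adenylyl cyclase, at 1.31, 1.38 and 2.38 CPM at ZT12 against 0.0505, 0.256 and 0.348 CPM at ZT0 (log2 fold change 2.90, edgeR adjusted p = 0.236), which rests on 1 to 7 counts in the ZT0 libraries. GRIA1 (ZJQ012950), a glutamate receptor subunit, had 21.9, 41.9 and 23.3 CPM at ZT12, against 5.0, 19.6 and 4.42 CPM at ZT0 (log2 fold change 1.56, edgeR adjusted p = 0.617). Library 2 was its highest at each time, as for Bmal1.

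Joined without the entrainment term, these lists and the activators made a network of 100 tested models, of which edgeR called 0, and 6 had an unadjusted p under 0.05 in the higher and 1 in the lower direction, or 7 in all. The same threshold was passed by 7.31% of all tested models in either direction. The 7 models were Bmal1, lncRna04157, CLOCK, the Nr1d2 model ZJQ018676, Pole and pola1 (ZJQ014003) on the higher side and LONRF3 on the lower. Leaving out those 3 and Timeless, 5 of the 96 remaining models separated upward at ZT12 (ARNT, Nr1d2, Pias1, pola1 and Rpa3) and 2 downward (HLF and LONRF3), beside the 5.84% and 6.33% of all tested models. The median log2 fold change of the 96 was 0.06.

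**Figure D5:**
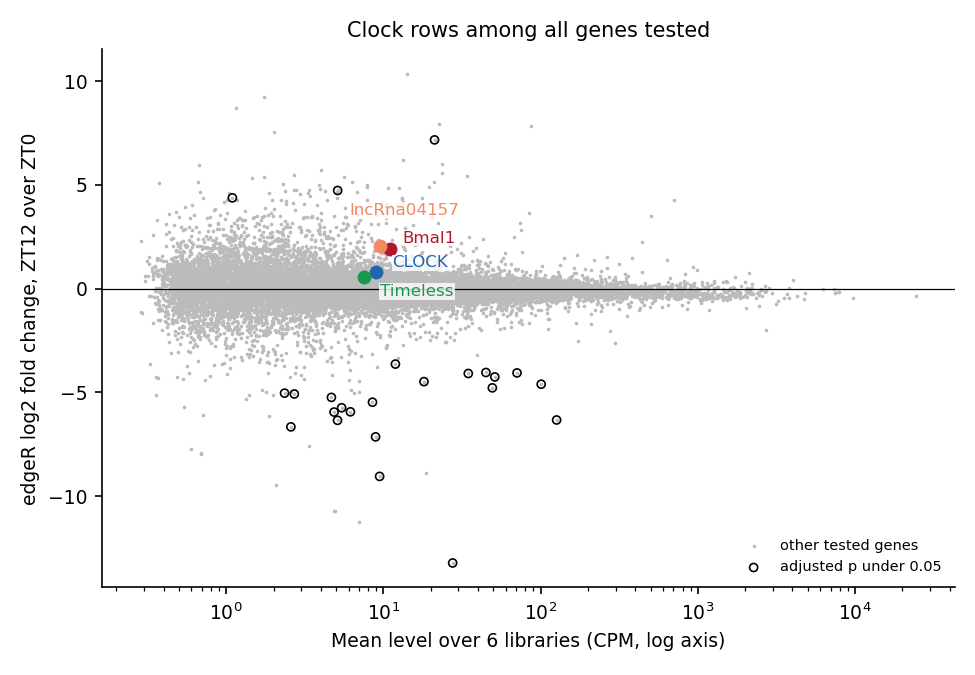
Each point is 1 of 18456 tested models, with its mean level over the 6 libraries (CPM, log axis) and its edgeR log2 fold change of ZT12 over ZT0; open circles mark the 24 called models. Bmal1, lncRna04157, CLOCK and Timeless lie at mid-range levels and above 0, and inside the cloud of models that were not called, the smallest called difference being 3.64 on the log2 scale.

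Models whose course over the 6 libraries was nearest to each of the 4 were found by the root mean square difference between log2 profiles centred on their own means, among 11499 named models with a mean of at least 1 CPM. The noncoding BMAL1 model stood 20th in nearness to Bmal1 among 18455 models of any kind, at a distance of 0.453, where the median model was at 1.29. CLOCK stood at rank 665 from Bmal1 and Timeless at rank 1231. Read the other way, Bmal1 stood at rank 12593 from CLOCK and at rank 14326 from Timeless. Nearest to Bmal1 were NLRP3 (ZJQ001636, a NACHT-domain immune sensor; distance 0.251), a model described as Toll-like receptor 4 (ZJQ007217; 0.253) and EFCAB6 (ZJQ015275, an EF-hand protein; 0.317). NLRP3 had 4.75, 6.70 and 2.19 CPM at ZT12, against 0.959, 2.48 and 0.994 CPM at ZT0, with library 2 the highest of each time, as for Bmal1. Nearest to lncRna04157 were ABCC9 (ZJQ004518, a potassium channel regulator; 0.237), EFCAB6 (0.325) and TK1 (ZJQ020724, the thymidine kinase of dividing cells; 0.359). ABCC9 had 11.2, 27.6 and 6.67 CPM at ZT12, against 3.58, 5.34 and 5.02 CPM at ZT0.

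CLOCK and Timeless had closer neighbours than either BMAL1 model. The median model was closer to them too, and the distance was not scaled to the spread of each profile. CLOCK was nearest to Nhlrc3 (ZJQ014553; 0.072), Ascc3 (ZJQ023270, a helicase subunit; 0.083) and Tmtc1 (ZJQ010255, a mannosyltransferase; 0.111), where the median model was at 0.704. Nhlrc3 had 7.49, 7.36 and 9.18 CPM at ZT12, against 4.80, 5.72 and 3.33 CPM at ZT0, with library 3 the highest at ZT12 and the lowest at ZT0, as for CLOCK. Timeless was nearest to RNF7 (ZJQ014544, a ubiquitin ligase subunit; 0.094), ATP13A1 (ZJQ009582, a transport ATPase of the endoplasmic reticulum; 0.099) and Hnmt (ZJQ007080, which inactivates histamine; 0.109), with a median of 0.593. RNF7 had 24.6, 19.3 and 13.8 CPM at ZT12, against 11.5, 13.4 and 12.8 CPM at ZT0. These distances describe 6 shared libraries and were not tested, and the differences between times of the models named for likeness did not pass edgeR's test.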

How the data were processed

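Coelomocyte RNA was extracted with TRIzol and sequenced by a service company, per the labels' protocols. The submitters' processing notes name fastp, HISAT2 and HTSeq. Versions, genome build, annotation and strand setting are not stated there. The authors deposited whole-number counts per model and FPKM values per library; 100% of 97028 FPKM values checked equalled the deposited count over library total and 1 length per model, within 0.1%, and those lengths were used.

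Libraries were grouped by labelled time. The test on counts was edgeR 4.0.16 under R 4.3.3 (filterByExpr with minimum count 10 and minimum total 15, TMM, glmQLFit with legacy = FALSE, glmQLFTest, ZT12 minus ZT0) and adjusted by Benjamini-Hochberg over 18456 models, with a threshold of 0.05. Standard errors were taken as |log2 fold change| over the square root of F. Ratios between models added 0.5 to each count and used a two-sided exact permutation test in scipy 1.17.1. Alternatives used DESeq2 1.42.0, limma 3.58.1 (voom with prior count 2 for log CPM; limma-trend on log2 of the deposited FPKM plus 1 or 0.1), other scalings, no filter, and fewer libraries. Scripts were tested on simulated data.

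The 4 models and the 8 gene lists, which are patterns on the authors' symbols, descriptions and pathway terms with 4 unrelated names removed, were chosen with earlier results of these data known. Named genes were the 4 models, the core clock models, up to 4 per list with the smallest p, and the 3 nearest profiles to each model, with others named for their role; a few list members were left out for length, and 1 is not reported here.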

Additional observations from a re-analysis of the deposited data

How the results depend on the processing

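Bmal1, lncRna04157, CLOCK, Timeless and the summed BMAL1 models were higher at ZT12 under every alternative run, and no alternative reversed them. DESeq2 alone moved any of them past the threshold, with a log2 fold change of 2.05 for lncRna04157 (adjusted p = 0.0269) and 2.0 for the sum (adjusted p = 0.0147), while Bmal1 had an adjusted p of 0.0518; DESeq2 called 264 models in all (1.33% of 19855), so 1 of the clock network was called there against 0 with edgeR. Over all alternatives the adjusted p ran from 0.0518 to 0.766 for Bmal1, 0.0269 to 0.830 for lncRna04157, 0.409 to 0.860 for CLOCK and 0.665 to 0.948 for Timeless. Models called numbered 24, against 10 with edgeR's legacy fit, 0 with limma-voom, 13 with the replicate block, 7 without library 2 of both times (chosen after seeing the data) and 0 to 24 leaving out 1 library in turn, with 0 without ZT12 library 1 or 3 and 15 without ZT0 library 3. Leaving out 1 library in turn gave log2 fold changes of 1.55 to 2.64 for Bmal1, 1.35 to 2.42 for lncRna04157, 0.61 to 0.98 for CLOCK, 0.38 to 0.75 for Timeless, and differences of -0.025 to 0.60 for Bmal1 over lncRna04157 and -0.0080 to 0.59 for CLOCK over Timeless, both of which changed sign; the cause was not tested. It gave 0.77 to 1.67 for Bmal1 over CLOCK, 1.15 to 2.04 for Bmal1 over Timeless, 0.34 to 1.61 for lncRna04157 over CLOCK and 0.83 to 1.60 for lncRna04157 over Timeless. Plain library sizes moved the median log2 fold change of all models to 0.12, and gave 2.0, 2.15, 0.94 and 0.66 for Bmal1, lncRna04157, CLOCK and Timeless. The replicate numbers do not pair the libraries: correlations of same-numbered deviations were -0.05, 0.02 and -0.00096, and 0 of 6 libraries correlated best with their own number. With the block the log2 fold changes were 2.0, 1.85, 0.85 and 0.51 for the 4 models, and no call changed among them. The spread between libraries exceeded counting error for Bmal1 at both times, but not for Timeless at ZT0, with a coefficient of variation of 6.94% against counting errors of 8.48% to 9.37%.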
